A study of Caenorhabditis elegans with 10 samples.

Results

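The 39 genes described here encode neuropeptides and the proteins that make and store them. They were chosen by gene identifier and comprise 20 FLP genes (flp-1 to flp-17, flp-19, flp-21 and flp-22), 15 NLP genes and 4 processing genes (egl-3, egl-21, sbt-1 and ida-1), out of 44968 genes in the authors' FPKM table. Read counts were used for 34 of them (16 FLP, 15 NLP and 3 processing genes), out of 13374 gene units with counts. The other 5 (flp-4, flp-7, flp-16, flp-17 and egl-3) were read from the authors' FPKM values alone. All 34 counted genes passed the filter on low counts, which kept 13226 units.

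Polyadenylated RNA was sequenced from whole first-stage (L1) larvae of the wild-type Caenorhabditis elegans strain N2. Embryos hatched in food-free liquid culture at 20 °C, and starved larvae were collected 24 h after bleaching, when they had been arrested for roughly 12 h. The rest of the culture was then given E. coli HB101 at 25 mg/mL. Summed counts ranged from 19163997 to 38607167 per library. The 4 groups were starved larvae (3 libraries) and larvae at 1 h (2 libraries), 3 h (2 libraries) and 6 h (3 libraries) after feeding. All groups share the strain, the arrest and the liquid culture, and no unfed library from a later time was analysed, so feeding and elapsed time cannot be told apart. The same 3 starved libraries are the reference at 1 h, 3 h and 6 h, so those comparisons are not independent of each other.

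Neuropeptides are cut from larger precursors in the secretory pathway and are released from dense-core vesicles to act on receptors of nearby or distant cells. In C. elegans the FLP peptides carry the FMRFamide-related ending, whereas NLP is a collective name for other neuropeptide-like proteins. The convertase EGL-3 cleaves the precursors with the help of the 7B2-like protein SBT-1, the carboxypeptidase EGL-21 trims the cleaved ends, and IDA-1, a protein related to tyrosine phosphatases, sits in the dense-core vesicle membrane. Neuropeptides are known in this animal for their part in feeding state, locomotion, sleep and egg laying.

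Most of the counted neuropeptide and processing genes were called lower at each time after feeding, and their median difference from starved larvae was larger at the later times. At 1 h, 18 of the 34 genes had fallen and none had risen, where 18.7% of all units tested were called lower, 20.4% higher and 39% in either direction (edgeR quasi-likelihood test, Benjamini-Hochberg adjusted p under 0.05). At 3 h, 22 had fallen and none had risen (19.7% of all units lower, 21.9% higher, 41.6% either way). At 6 h, 29 had fallen and none had risen (25% of all units lower, 27% higher, 52% either way). A joint test over the 3 times called 28 of the 34, where 55.8% of all units were called. The estimated log2 change was below 0 for 33 of 34 genes at 1 h and for 34 of 34 at 3 h and 6 h. Its median over the 34 genes was -0.54 at 1 h, -0.68 at 3 h and -1.02 at 6 h. Over all units tested the median was -0.0035, -0.020 and -0.039. The fed libraries lay wholly below the starved ones for 25, 25 and 27 of the 34 genes, against 29.7%, 30.8% and 27% of all units.

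The counts at the first 2 times depended on single fed libraries, and each of these groups had only 2. At 1 h the 18 calls became 7 without fed replicate 1, 6 without fed replicate 2, 6 from the longest bin of each gene alone and 10 with library totals alone, and at 3 h the 22 became 12 and 13 without fed replicate 1 and 2. The share of all units called in each of these refits is not given here, so these counts cannot be set against a background. The median log2 change of the 34 genes was -0.65 and -0.52 at 1 h without fed replicate 1 and 2. At 3 h it was -0.62 and -0.71. Over all units the median was -0.030 and -0.018 at 1 h, and -0.011 and -0.027 at 3 h. Libraries were also scaled to the summed counts of 22 pan-neuronal genes, an alternative chosen after seeing the data. That left 3, 8 and 21 genes lower at 1 h, 3 h and 6 h and none higher. Of all units, 10.9%, 12.1% and 13.3% were called lower in that scaling, so the 3 of 34 at 1 h were not above the background. In that scaling the median of all units moved to 0.24, 0.26 and 0.35 and that of the 34 genes was -0.30, -0.40 and -0.62. Such a sum is weighted towards the genes with the highest counts. In the main fit the median change of the 22 genes themselves was 0.05 at 1 h, -0.09 at 3 h and -0.22 at 6 h. In RNA from whole larvae, fewer cells of a type and less RNA per cell cannot be told apart.

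**Figure D1:**
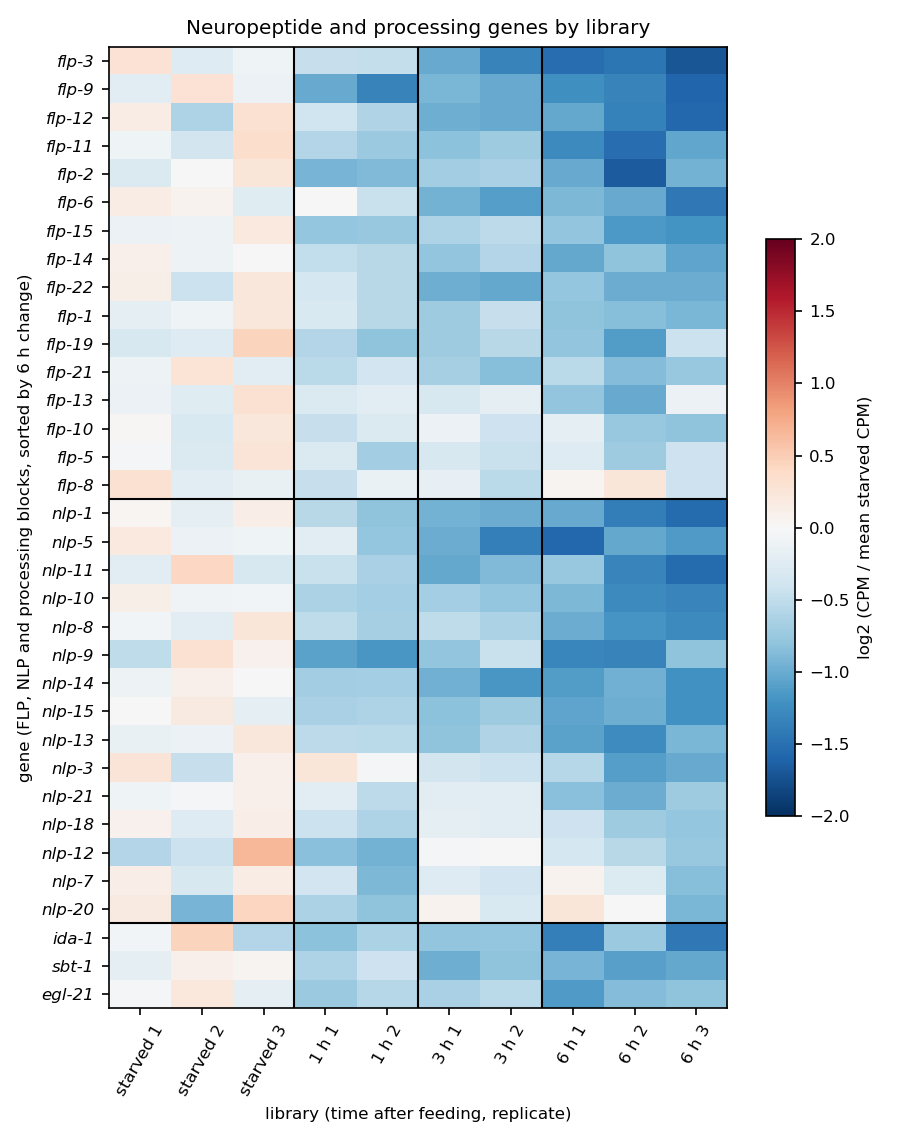
Level of the 34 counted genes (one per line, FLP above, then NLP, then processing) in each of the 10 libraries (columns), as log2 of CPM over the mean starved CPM. Most fed libraries are blue, below the starved mean, and the blue is deepest at 6 h, whereas flp-8, nlp-7, nlp-12 and nlp-20 keep pale squares in several fed libraries.

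Among the FLP genes, 6 of 16 had fallen at 1 h, 11 at 3 h and 14 at 6 h, and flp-8 and flp-10 were not called at any time. Of all units, 18.7%, 19.7% and 25% were lower at these times. Levels are given as CPM, the count scaled by the effective library size so that libraries can be compared. The largest early change was that of flp-9 (C36H8.3, chromosome IV, 12754527 to 12757642, minus strand, in the WS210 build). Its level was 399, 560.3 and 424 CPM in the starved libraries, 229 and 182 at 1 h, 244 and 229 at 3 h, then 198, 183 and 153 at 6 h. Every fed library was below every starved one, and the level at 1 h was 44.6% of that in starved larvae, with a log2 change of -1.16 ± 0.20 (SE) and an adjusted p of 0.000413. At 6 h the change was -1.37 ± 0.18.

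The gene flp-3 (W07E11.2, chromosome X, 10091896 to 10092897, minus strand), known for a part in male mating, fell furthest by 6 h. It stood at 142.5, 97.8 and 110 CPM in starved larvae, 84.5 and 83.8 at 1 h, 57.8 and 45.99 at 3 h, then 40.4, 42.8 and 35.6 at 6 h. The groups did not overlap at any fed time, yet the change at 1 h did not pass the test (-0.47 ± 0.19, adjusted p = 0.0579). At 3 h it was -1.17 ± 0.19 (adjusted p = 0.000202) and at 6 h -1.56 ± 0.17 (adjusted p = 3.2e-06), which left 33.97% of the starved level. Its neighbour flp-2 (W07E11.3, chromosome X, 10094365 to 10095159), a ligand of the arousal receptor FRPR-18, lies 1467 nt away on the same strand. The starved libraries held flp-2 at 56.5, 68.7 and 81.7 CPM, the 1 h libraries at 36.1 and 37.35, the 3 h libraries at 42.8 and 43.99, and the 6 h libraries at 34.4, 21.8 and 35.7. Here the level was already low at 1 h (-0.91 ± 0.22, adjusted p = 0.00424), when flp-3 was not called. The difference between the neighbours was not tested.

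The gene flp-6, expressed in sensory neurons and known for a link between temperature and lifespan, had a step between 1 h and 3 h. It was at 86.2, 81.1 and 65.4 CPM in starved larvae and 77.4 and 57.0 at 1 h, so these groups overlapped. At 3 h it was at 40.1 and 36.2 and at 6 h at 41.5, 38.7 and 28.7, below all earlier libraries. The genes flp-3 and flp-6 were the only 2 of 34 to pass the test between 1 h and 3 h, with log2 changes of -0.70 ± 0.20 (adjusted p = 0.045) and -0.82 ± 0.22 (adjusted p = 0.0317). Of all units, 9.38% were called in that comparison, 4.6% lower and 4.79% higher. Both calls were lost in each fit that left out a 1 h or a 3 h library.

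Other genes were near their final level by 3 h. The gene flp-22 was at 107.8, 74.2 and 117 CPM in starved larvae and at 78.2 and 67.6 at 1 h, which overlapped, but at 50.5 and 48.9996 at 3 h and 58.1, 50.3 and 49.9 at 6 h. Its change was -1.001 ± 0.20 at 3 h and -0.92 ± 0.17 at 6 h. The gene flp-21, which encodes a ligand of the foraging receptor NPR-1, was at 40.9, 53.3 and 38.15 CPM in starved larvae, 30.2 and 33.96 at 1 h, 27.9 and 24.35 at 3 h, then 30.2, 24.1 and 26.2 at 6 h. It was called at 3 h and 6 h (-0.76 ± 0.19 and -0.72 ± 0.17) but not at 1 h, although no library overlapped.

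The peptide gene with the highest level per length, flp-1 (F23B2.5, chromosome IV, 9144673 to 9146100, plus strand), acts in locomotion. Its level was 719.8, 766 and 947 CPM in starved larvae, 655 and 552 at 1 h, 493 and 589 at 3 h, then 464, 449 and 429.6 at 6 h. No fed library reached a starved one, and the change passed the test at 3 h (-0.58 ± 0.19, adjusted p = 0.0239) and 6 h (-0.86 ± 0.17, adjusted p = 0.000721). At 1 h it was -0.43 ± 0.19 with an adjusted p of 0.0918. The gene made up 19.03% of the summed CPM of the counted peptide genes, without regard to length, in starved larvae and 20.5% at 6 h, while the share of flp-9 was 10.8% and 8.2%.

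The sleep-related genes flp-11 and flp-13 had estimates of different size. The gene flp-11, made by the sleep-active neuron RIS, was at 259, 211 and 350.2 CPM in starved larvae, 182 and 164 at 1 h, 155 and 168 at 3 h, then 114, 95.5 and 134 at 6 h. Its change was -0.66 ± 0.22 at 1 h and -1.26 ± 0.19 at 6 h, and 3 of its bins overlap a gene on the other strand, so those counts are uncertain where the strand setting is not given. The gene flp-13, made by the ALA neuron and known from sleep after stress, was at 65.6, 60.25 and 88.1 CPM in starved larvae, 58.4 and 61.6 at 1 h, 57.2 and 62.999 at 3 h, then 41.4, 35.3 and 65.9 at 6 h. It overlapped the starved range at every time and passed the test only at 6 h (-0.58 ± 0.21, adjusted p = 0.0333), a call that did not hold in every fit without 1 library. The difference between the genes was not tested.

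The genes flp-15, flp-14 and flp-12 fell without overlap at 3 h and 6 h. The gene flp-15 was at 176, 179.5 and 221 CPM in starved larvae, 112 and 113 at 1 h, 126 and 134 at 3 h, then 111, 86.9 and 84.4 at 6 h. The gene flp-14 was at 167, 146 and 156 CPM in starved larvae, 111 and 106 at 1 h, 90.1 and 105 at 3 h, then 76.5, 89.9 and 74.9 at 6 h. Both were called at all 3 times, with log2 changes at 6 h of -1.03 ± 0.16 and -0.96 ± 0.14. The gene flp-12, one of the FLP genes that restrain turning in male mating, was at 243, 143 and 272 CPM in starved larvae and 167 and 144 at 1 h, which overlapped. It was at 111 and 109 at 3 h and at 107.7, 86.1 and 73.97 at 6 h, and was called at both (-0.99 ± 0.25 and -1.30 ± 0.22).

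The FLP genes flp-19 and flp-5 were called on smaller or less even differences. The gene flp-19, expressed in gas-sensing BAG neurons among others, was at 132, 137.5 and 223 CPM in starved larvae, 109.8 and 94.3 at 1 h, 101 and 112 at 3 h, then 95.1, 75.6 and 122 at 6 h. It passed at 1 h (-0.69 ± 0.24) and 6 h (-0.75 ± 0.22) and had an adjusted p of 0.0527 at 3 h. The gene flp-5 was at 85.6, 71.1 and 103.6 CPM in starved larvae, 71.2 and 53.7 at 1 h, 69.4 and 63.5 at 3 h, then 72.3, 53.2 and 65.1 at 6 h. It passed only at 6 h (-0.45 ± 0.18, adjusted p = 0.0457), with overlapping groups, and neither 6 h call held in every fit without 1 library.

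The 2 FLP genes that were not called had no common pattern of values. The gene flp-8 was at 55.7, 38.6 and 40.4 CPM in starved larvae, 32.5 and 41.02 at 1 h, 40.0 and 31.01 at 3 h, then 46.75, 52.9 and 33.7 at 6 h, with a log2 change of -0.01 ± 0.20 at 6 h. The gene flp-10, which encodes a ligand of the egg-laying receptor EGL-6, had the lowest level per length, at 11.9, 9.43 and 13.65 CPM in starved larvae, 8.51 and 9.58 at 1 h, 10.8 and 8.80 at 3 h, then 10.3, 6.94 and 6.67 at 6 h. Its change at 6 h was -0.55 ± 0.23 with an adjusted p of 0.055.

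**Figure D2:**
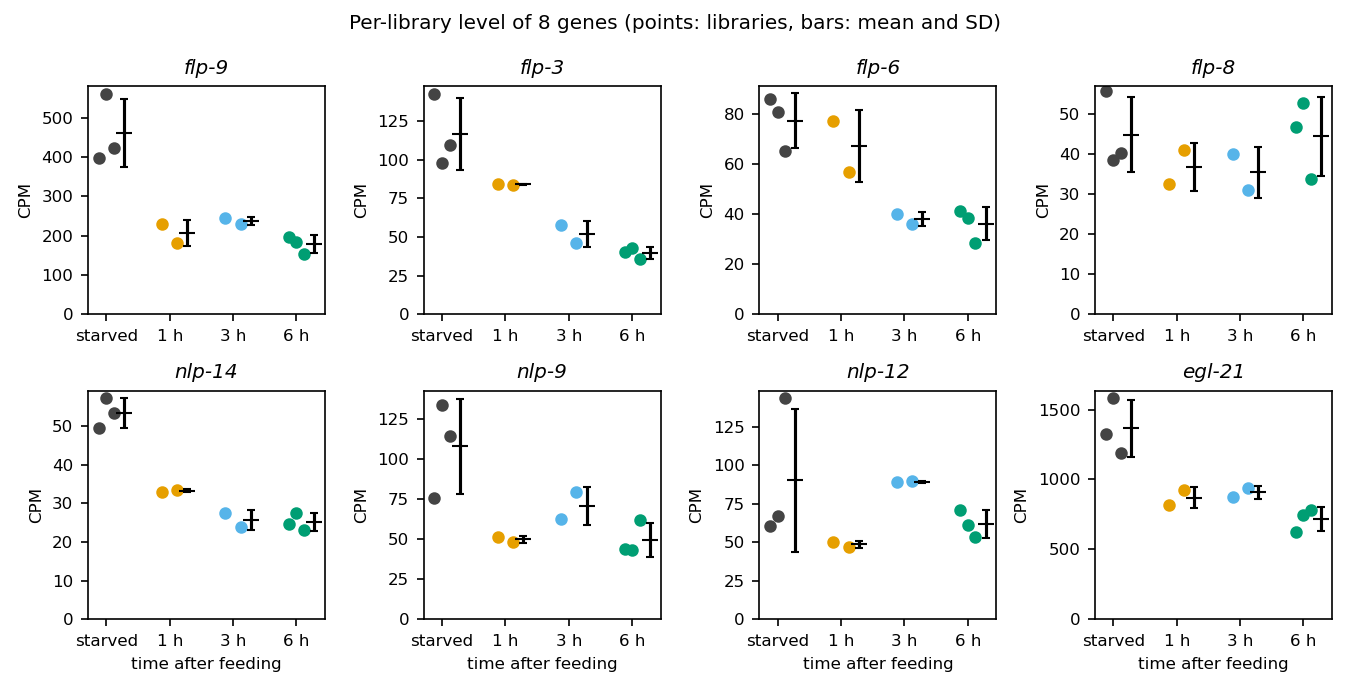
CPM of 8 genes by library (points) with the mean and SD of each group (black), on axes that start at 0. The points of flp-9, flp-3, nlp-14 and egl-21 in fed larvae lie below all starved points, flp-6 steps down between 1 h and 3 h, and nlp-12 has 1 starved library at 143 CPM above the others.

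Among the NLP genes, 9 of 15 had fallen at 1 h, 8 at 3 h and 12 at 6 h, where 18.7%, 19.7% and 25% of all units were lower. The gene nlp-9 (E03D2.2) was at 75.6, 134 and 114 CPM in starved larvae, 51.3 and 48.2 at 1 h, 62.2 and 79.1 at 3 h, then 43.8, 42.9 and 61.5 at 6 h. It was called at 1 h (-1.12 ± 0.24, adjusted p = 0.00194), was not called at 3 h, when the groups overlapped (-0.61 ± 0.24, adjusted p = 0.0506), and was called again at 6 h (-1.13 ± 0.21). The change between 1 h and 3 h was 0.51 ± 0.25 and did not pass the test (adjusted p = 0.256). Its neighbour nlp-13 (E03D2.1), 14221 nt away on the same strand of chromosome V with no counted unit between, was at 107.995, 110 and 139 CPM in starved larvae, 82.4 and 81.9 at 1 h, 68.2 and 78.4 at 3 h, then 56.6, 49.99 and 62.96 at 6 h. It was called at every time, with a log2 change of -1.08 ± 0.15 at 6 h.

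The orcokinin genes nlp-14 and nlp-15 were low from 1 h on. The gene nlp-14 (D1009.4, chromosome X, 8917376 to 8919429, minus strand) was at 49.6, 57.5 and 53.5 CPM in starved larvae, 33.01 and 33.5 at 1 h, 27.6 and 23.8 at 3 h, then 24.6, 27.6 and 23.01 at 6 h. It was the only NLP gene besides nlp-9 whose call at 1 h held in every fit without 1 library (-0.69 ± 0.16, adjusted p = 0.00375), and its change at 6 h was -1.09 ± 0.14. The gene nlp-15 was at 82.8, 94.3 and 73.5 CPM in starved larvae, 53.3 and 54.6 at 1 h, 47.2 and 51.1 at 3 h, then 40.1, 42.4 and 36.1 at 6 h. No fed library overlapped the starved range for either gene.

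The gene nlp-1, made by the olfactory neuron AWC and known for its effect on odour behaviour, changed most among the NLP genes by 6 h. It was at 59.7, 50.97 and 63.9 CPM in starved larvae, 39.6 and 33.2 at 1 h, 30.25 and 29.4 at 3 h, then 28.9, 22.3 and 20.0 at 6 h. The log2 changes were -0.68 ± 0.19, -0.96 ± 0.19 and -1.29 ± 0.17 (adjusted p = 1.94e-05 at 6 h). The gene nlp-5 was at 21.6, 17.35 and 17.8 CPM in starved larvae, 16.15 and 11.1 at 1 h, 9.56 and 7.34 at 3 h, then 6.36, 9.30 and 8.62 at 6 h, and was called at 3 h (-1.16 ± 0.25) and 6 h (-1.22 ± 0.22). The gene nlp-11 was at 117, 182 and 109.8 CPM in starved larvae, 100.4 and 87.4 at 1 h, 66.9 and 73.9 at 3 h, then 80.99, 54.4 and 46.9 at 6 h, and was called at the same 2 times (-0.95 ± 0.25 and -1.17 ± 0.22). All 3 genes were without overlap at each fed time.

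The genes nlp-8 and nlp-10 were called at all 3 times. The gene nlp-8, which acts with flp-13 in sleep after stress, was at 138, 125 and 170.5 CPM in starved larvae, 102 and 90.7 at 1 h, 102 and 93.1 at 3 h, then 72.6, 63.9 and 60.02 at 6 h. The gene nlp-10 was at 63.35, 55.9 and 56.1 CPM in starved larvae, 37.5 and 36.55 at 1 h, 36.6 and 34.2 at 3 h, then 31.2, 24.1 and 23.3 at 6 h. Their values at 1 h and 3 h were close, and the change at 6 h was -1.14 ± 0.16 for nlp-8 and -1.16 ± 0.15 for nlp-10.

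The genes nlp-3, nlp-21 and nlp-18 were lowest or called mainly at 6 h. The gene nlp-3, which acts in egg laying, was at 147, 89.2 and 131 CPM in starved larvae and at 145 and 118.7 at 1 h, the only counted gene with an estimate above 0 at that time (0.11 ± 0.22, adjusted p = 0.738). It was at 94.6 and 90.5 at 3 h and at 82.2, 56.8 and 60.9 at 6 h, and fell by 6 h (-0.88 ± 0.20, adjusted p = 0.00184). The gene nlp-21 was at 102, 106 and 115 CPM in starved larvae, 93.3 and 74.98 at 1 h, 91.6 and 92.9 at 3 h, then 60.1, 54.1 and 65.5 at 6 h, and was called at 6 h alone (-0.85 ± 0.14). The gene nlp-18 was at 196, 155 and 204 CPM in starved larvae, 138 and 121 at 1 h, 162 and 160.5 at 3 h, then 138, 114 and 108.3 at 6 h. It passed at 1 h (-0.52 ± 0.18) and 6 h (-0.62 ± 0.16), and at 3 h both fed libraries lay within the starved range.

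The values of nlp-12, a cholecystokinin-like peptide gene active in locomotion, depended on single libraries. It was at 60.2, 66.8 and 143 CPM in starved larvae, 50.2 and 46.9 at 1 h, 88.8 and 89.7 at 3 h, then 70.9, 61.04 and 53.2 at 6 h. The fall at 1 h passed the test (-0.89 ± 0.30, adjusted p = 0.028), a call that was lost without starved replicate 3 and without either 1 h library. The estimate at 3 h was -0.01 ± 0.29 with all libraries and 0.49 (adjusted p = 0.0356) without that replicate, so its direction at 3 h changed with 1 library. Starved replicate 3 was the highest of the starved libraries for 18 of the 31 counted peptide genes and for none of the 3 counted processing genes.

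The last 2 NLP genes were not called at any time in the main fit. The gene nlp-7, known from egg laying and avoidance behaviour, was at 53.8, 39.6 and 54.6 CPM in starved larvae, 37.7 and 26.5 at 1 h, 41.1 and 37.9 at 3 h, then 51.98, 40.9 and 27.2 at 6 h. The gene nlp-20 had uneven libraries, at 31.5, 14.6 and 37.7 CPM in starved larvae, 18.1 and 16.05 at 1 h, 29.3 and 22.75 at 3 h, then 32.9, 28.1 and 14.8 at 6 h. The log2 changes at 6 h were -0.30 ± 0.22 and -0.14 ± 0.32. At 1 h they were -0.62 ± 0.25 (edgeR adjusted p = 0.0638) and -0.71 ± 0.37 (adjusted p = 0.146). Each 1 h library was below every starved one for nlp-7, whereas those of nlp-20 overlapped. The gene nlp-7 was called at 1 h with DESeq2 and with upper-quartile factors.

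The 3 counted processing genes had fallen at every time, where 18.7%, 19.7% and 25% of all units were lower at 1 h, 3 h and 6 h. The gene egl-21 (F01D4.4, chromosome IV, 10478440 to 10481816, minus strand) was at 1326, 1586 and 1187 CPM in starved larvae, 816 and 925 at 1 h, 874 and 941 at 3 h, then 621, 746 and 781 at 6 h. Its log2 change was -0.65 ± 0.20 (adjusted p = 0.0179), -0.59 ± 0.20 and -0.93 ± 0.18 (adjusted p = 0.000501). The gene sbt-1 (T03D8.3, chromosome V, 20827678 to 20828849, minus strand) was at 653, 788 and 766 CPM in starved larvae, 479 and 553 at 1 h, 376 and 422 at 3 h, then 385, 348 and 361 at 6 h. Its changes were -0.51 ± 0.18, -0.88 ± 0.18 and -1.01 ± 0.16, and 1 of its bins overlaps a gene on the other strand. The gene ida-1 (B0244.2, chromosome III, 5755488 to 5765764, plus strand) was at 467, 662 and 324 CPM in starved larvae, 274 and 311 at 1 h, 279 and 283 at 3 h, then 187, 288 and 181 at 6 h. It was the least even of the 3 in starved larvae, though no fed library overlapped, and its changes were -0.73 ± 0.28 (adjusted p = 0.0489), -0.79 ± 0.28 and -1.15 ± 0.24. At 1 h none of the 3 calls held in every fit without 1 library, and at 6 h all 3 did.

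Few or none of the genes were called from one fed time to the next. Between 6 h and 3 h, 0 of the 34 genes passed edgeR's test, where 2.77% of all units did, 0.665% lower and 2.1% higher. At an unadjusted p under 0.05, 10 of the 34 differed, all lower at 6 h, and DESeq2 called 2. The share of all units at that unadjusted threshold was not computed, so the 10 cannot be set against a background. Between 6 h and 1 h, 11 of 34 had fallen and none had risen (24.6% of all units called, 11.3% lower and 13.3% higher), with flp-3 the largest at -1.09 ± 0.18 (adjusted p = 0.000703) and nlp-3 next at -0.98 ± 0.22. That count was 1 and 4 without the first or the second 1 h library, 5 without 6 h replicate 2, 7 from the longest bin of each gene alone, 3 with pan-neuronal scaling and 26 with library totals alone. By time of the calls against starved larvae, 14 genes were lower at all 3 times, 8 at 3 h and 6 h, 3 at 1 h and 6 h, 4 at 6 h alone and 1 (nlp-12) at 1 h alone, with 4 never called. Of the 29 genes called at 6 h, the median estimate at 1 h was 52.4% of the log2 change at 6 h, and that at 3 h was 70.1%. Choosing genes by their 6 h call favours large 6 h estimates, which can lower these percentages. All the estimates also share the starved libraries, so the percentages do not measure the pace of the fall.

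Leaving out 1 library of a group kept 2 at 6 h but only 1 at 1 h or 3 h. On that unequal base, the calls at 6 h were the least dependent on single libraries. Of the 29, 26 were called in each of the 10 fits that left out 1 library, the exceptions being flp-5, flp-13 and flp-19. At 3 h 10 of 22 were (flp-3, flp-6, flp-9, flp-12, flp-22, nlp-1, nlp-5, nlp-14, nlp-15 and sbt-1), and at 1 h 5 of 18 were (flp-2, flp-9, flp-15, nlp-9 and nlp-14).

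Compared per length, flp-1 had the highest level and flp-10 the lowest in starved larvae and at 6 h. In starved larvae flp-1 was at 1174 ± 174.2 CPM per kb (SD, n = 3), followed by sbt-1 at 924 ± 90.97, egl-21 at 826 ± 122, flp-9 at 626 ± 118 and flp-15 at 432 ± 55.4, and flp-10 was at 16.2 ± 2.942. At 6 h the same measure was 648 ± 25.18 for flp-1, 459 ± 23.7 for sbt-1, 433 ± 51.04 for egl-21, 242 ± 31.04 for flp-9, 211 ± 33.05 for flp-15 and 11.04 ± 2.799 for flp-10. The highest level was 72.6 times the lowest in starved larvae and 58.7 times at 6 h. Of the 33 pairs of neighbours in the order, 29 overlapped in their libraries in starved larvae and 29 at 6 h, so most adjacent ranks did not differ beyond their spread.

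**Figure D3:**
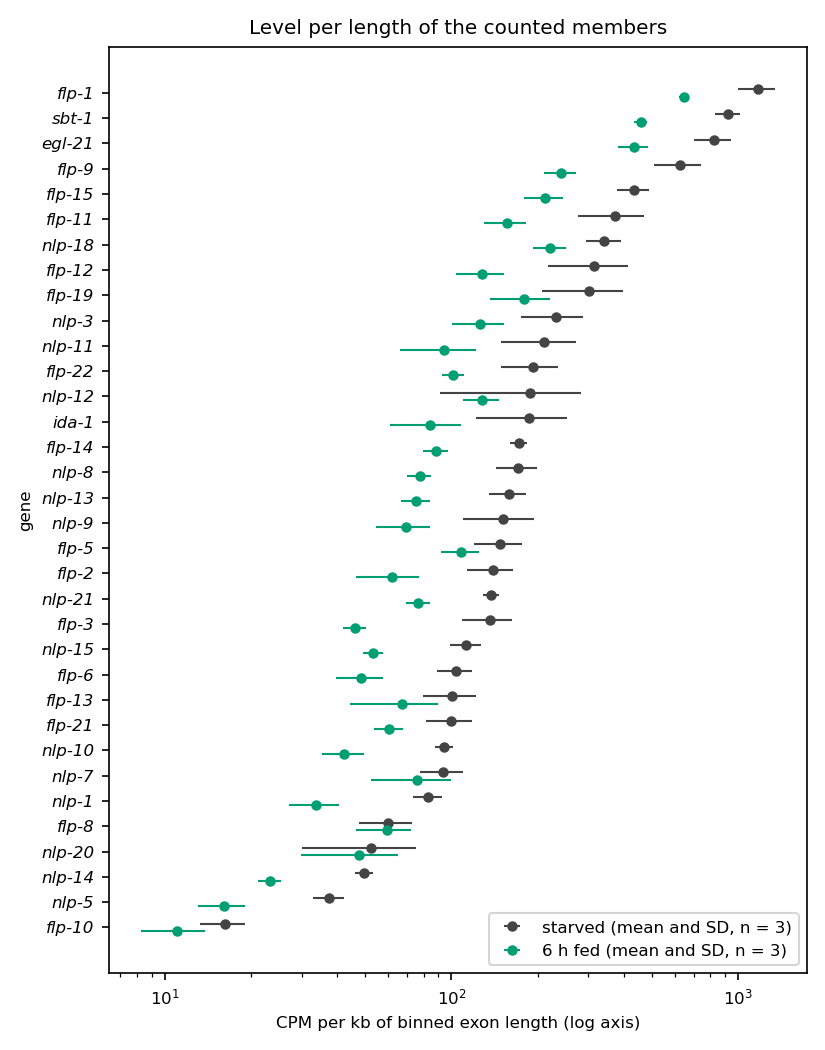
CPM per kb of binned exon length (log axis) of the 34 counted genes, sorted by starved level, with mean and SD (n = 3) for starved larvae (dark) and larvae fed for 6 h (green). Nearly all green points lie left of the dark ones, the points of flp-8 coincide, and flp-1, sbt-1 and egl-21 stay at the top.

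The authors' FPKM values, which hold a single pooled value per time point with confidence limits and no replicate spread, covered all 39 genes. Of these, 37 were below the starved value at 1 h, with nlp-3 and flp-7 above it, and 39 were below it at 3 h and 6 h. The authors' limits did not overlap the starved limits for 0, 18 and 23 of the 39 genes at 1 h, 3 h and 6 h, each of them lower. Over the 15191 genes with a starved FPKM of 1 or more, 11.4%, 19.9% and 17.5% had limits wholly below the starved ones. The median FPKM over the 39 genes was 72.3%, 48.9% and 38.1% of the starved value. Over those 15191 genes the median was itself 93.4%, 72.6% and 69.7%, so the FPKM scale as a whole was lower at 3 h and 6 h.

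The 5 genes read from FPKM alone all had a lower value at 6 h on that scale, but their limits overlapped the starved limits at every time. The convertase gene egl-3 was at 313, 148, 123 and 105 FPKM in starved larvae and at 1 h, 3 h and 6 h, but the authors' table marks its estimate as failed and its starved limits ran from 49.3 to 577. The gene flp-16 was at 515, 290.1, 281 and 188 FPKM, flp-4 at 186, 180.4, 107.5 and 81.9, and flp-17, which encodes another EGL-6 ligand and is made by BAG neurons, at 122, 91.9, 68.5 and 60.2. The gene flp-7, known for its effect on body fat, was at 49.3, 50.1, 44.3 and 33.4, with starved limits of 31.7 to 66.9 that held every later value, and its 67.7% of the starved value at 6 h was close to the 69.7% of all genes.

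Of the 39 genes, 16 have several transcripts in the authors' FPKM table, given here with no test. For flp-1, transcript c made up 52.1% of the gene's FPKM in starved larvae and 40.9% at 6 h, and transcript a 10.7% and 20.3%. For egl-3, whose gene estimate is marked as failed, transcript b made up 83.5% and 53.2%. For flp-12, transcript a made up 99.6% and 99.1%, and for flp-11 transcript a 97.7% and 92.7%. A single transcript held nearly all of the FPKM of flp-12 and flp-11, whereas flp-1 was spread over its 3 transcripts.

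The parts of these genes covered by reads did not shift enough to pass a test. Bin use, the share of a gene's counts in each exonic bin, was compared in 11772 genes with edgeR's diffSpliceDGE. None of the 34 genes was called at 1 h, 3 h or 6 h against starved, where 0.374%, 0.195% and 0.552% of all genes were. An unadjusted p under 0.05 was found for 3, 1 and 3 of the 34, and the share of all genes at that threshold was not computed. The gene-level F test of the same fit also called 0. The lowest adjusted p was 0.0912, for flp-12 at 1 h. Its bin 3 (chromosome X, 4592123 to 4592235), which belongs to transcript b alone, held 1.25 ± 0.417% of the gene's counts in starved larvae and 0.210 ± 0.0112% at 1 h (50, 94 and 88 counts against 9 and 9). In the authors' FPKM table transcript b went the other way, from 0.402% of the gene's FPKM in starved larvae to 0.540% at 1 h. Without starved replicate 1, flp-12 was called at 1 h.

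Further peptide genes of the same families were called mostly lower, where 18.7%, 19.7% and 25% of all units were lower and 20.4%, 21.9% and 27% higher at 1 h, 3 h and 6 h. Of 10 further FLP genes with counts, 7 had fallen at 1 h, 6 at 3 h and 8 at 6 h and none had risen, with a median log2 change of -1.25 at 6 h. Their lowest was flp-33, from 42.6 ± 9.77 CPM in starved larvae to 10.7 ± 1.85 at 6 h. Of 47 further NLP and peptide genes, 20, 19 and 29 had fallen and 2, 1 and 2 had risen, with a median of -0.73 at 6 h. Those that rose were nlp-16 at 1 h, nlp-23 at all 3 times and nlp-36 at 6 h, which went from 57.98 ± 3.73 to 87.3 ± 21.5 CPM. The level of nlp-23 was very low, at 0.065 ± 0.092 CPM in starved larvae. It was 1.04 ± 0.28, 1.03 ± 0.085 and 0.63 ± 0.57 CPM at 1 h, 3 h and 6 h. A list of 16 epidermal antimicrobial peptide genes, some of which carry nlp names but act in the skin, had 5 higher and 4 lower at 6 h.

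Receptor genes had most of their calls at 6 h. Of 94 neuropeptide receptor genes, 10 had fallen and 5 had risen at 1 h, 6 and 3 at 3 h, then 30 and 2 at 6 h, with medians of -0.02, -0.08 and -0.43. Beside the 25% of all units that were lower at 6 h, and the 18.7% and 19.7% at 1 h and 3 h, these shares of lower receptor genes were near the background at 6 h and under it before. The shares that rose were under the 20.4%, 21.9% and 27% of all units at the 3 times. Against a median of -0.039 over all units at 6 h stood the -0.43 of the receptor genes. The FLP-2 receptor gene frpr-18 had fallen the furthest of them, from 28.9 ± 2.05 CPM in starved larvae to 13.25 ± 1.235, 11.75 ± 1.326 and 9.77 ± 0.616. Beside it, its ligand gene flp-2 was at 68.98 ± 12.6 CPM in starved larvae and 30.6 ± 7.67 at 6 h. In the other direction, the receptor gene npr-7 was at 7.64 ± 1.58 CPM in starved larvae and 12.8 ± 2.13 at 6 h.

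Of 24 other processing and dense-core vesicle genes, 5, 5 and 9 had fallen and 1, 3 and 6 had risen at 1 h, 3 h and 6 h, with a median of 0.04 at 6 h. The 5 of 24 lower at 1 h were near the 18.7% of all units, and the 6 of 24 higher at 6 h near the 27%. The amidating enzyme gene pghm-1 fell from 384 ± 70.4 to 184 ± 33.2 CPM at 6 h, and the vesicle genes ric-19 and cccp-1 had fallen at 3 h. The carboxypeptidase gene cpd-2 and vps-53, a tethering factor gene, had risen at 3 h and 6 h. Of 17 neprilysin and peptidase genes, which include enzymes that break down peptides, 7 had risen and 5 had fallen at 6 h. Of all units, 27% were higher and 25% lower at that time. The largest changes in this list were those of acn-1, from 2.11 ± 0.975 to 75.8 ± 10.9 CPM, and dpf-6, from 35.9 ± 3.65 to 7.69 ± 1.18 CPM. The neprilysin-like gene nep-22 rose from 79.7 ± 6.59 to 394 ± 28.6 CPM, while nep-1 fell from 28.9 ± 7.26 to 10.64 ± 4.165 CPM.

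**Figure D4:**
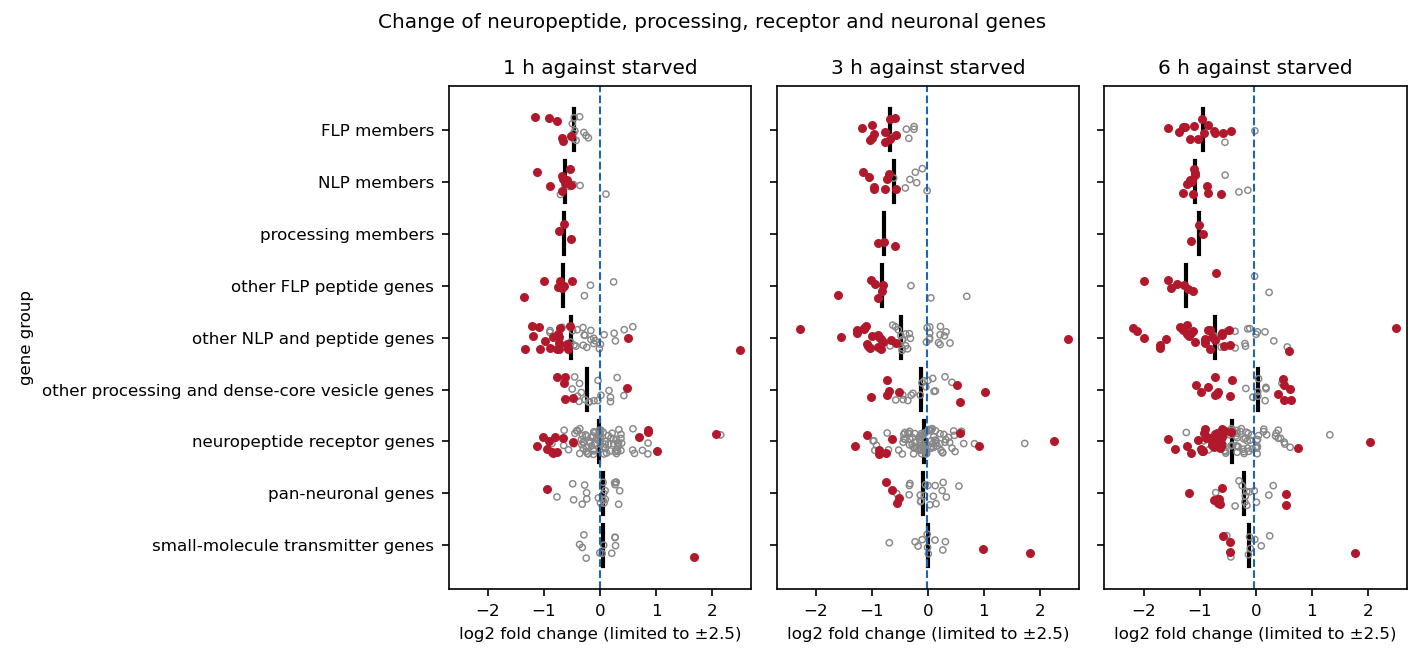
Log2 fold change against starved larvae (horizontal axis, limited to ±2.5) of each gene in 9 groups at 1 h, 3 h and 6 h, with called genes in red, others as open circles, the group median as a black bar and the median of all units as a dashed line. The bars of the FLP, NLP and processing members lie left of the dashed line at each time, and those of pan-neuronal and transmitter genes lie close to it at 1 h and 3 h.

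Other neuronal genes had median changes nearer to that of all units. Of all units, 18.7%, 19.7% and 25% were lower and 20.4%, 21.9% and 27% higher at 1 h, 3 h and 6 h. Of 22 pan-neuronal genes, 1, 4 and 7 had fallen and 0, 0 and 2 had risen at these times, with medians of 0.05, -0.09 and -0.22. Their share of lower genes was under that of all units at 1 h and near it at 3 h and 6 h. Their share of higher genes was under it at each time. Their summed level was 3048 to 3909 CPM in starved larvae and 2643 to 2997, 2726 to 2734 and 2340.4 to 2742 CPM at the 3 fed times, and none of the 22 was at 0. The summed level of the 16 FLP genes was 2698 to 3250.2 CPM in starved larvae and 1803 to 2042, 1716 to 1811 and 1392 to 1541 CPM after feeding. For the 15 NLP genes it was 1298 to 1484 CPM and then 881 to 997, 958 to 965 and 672 to 821 CPM. Of 12 genes for small-molecule transmitters, 3 had fallen and 1 had risen at 6 h (25% of all units lower, 27% higher). The riser was bas-1, whose product is needed for serotonin and dopamine. The part of a change in the amount of neuronal RNA in the results above was not tested, apart from the pan-neuronal scaling.

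Markers of other tissues are given for comparison, since whole larvae were sampled. At 6 h 25% of all units were lower and 27% higher, so counts of 2 or 3 genes in a list of 6 or 8 are close to those shares. The summed level of body wall muscle markers went from 3578 to 4935 CPM in starved larvae to 2170 to 3195 CPM at 6 h (4 of 5 called lower), and pharynx markers from 2083 to 4056 to 1449 to 2384 CPM (4 of 6 called lower). Intestine markers ranged from 4158 to 6116 CPM and from 6123 to 9491 CPM, with 3 of 8 higher and 2 lower, and hypodermis markers from 140 to 168 and from 213 to 254 CPM, with 2 of 6 higher. Glia markers were at 149 to 154 and 183 to 216 CPM with 2 of 6 higher, and germline markers at 56.5 to 86.8 and 29.1 to 97.5 CPM with 2 of 6 lower. None of these marker genes with counts was at 0 in every library of a group. The part of these changes in the peptide results was not tested.

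In length and chromosome, which their choice did not use and which were not tested, the 34 counted genes had a median binned length of 705 nt, against 1315 nt over all units tested, and 11 of them (32.4%) lie on the X chromosome, against 15.5% of all units.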

How the data were processed

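Polyadenylated RNA of 10 libraries was sequenced on a SOLiD 4 instrument, per the labels. Per the submitters' processing notes, alignment by the authors used Bowtie 0.12.7 with TopHat. The deposited counts are read counts per exonic bin made with DEXSeq scripts on WS210 models, per the deposited notes. The sources used here do not give their strand setting. The authors' FPKM values come from cuffdiff of Cufflinks 1.0.2, pooled by time point, per the deposited notes.

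Counts were summed over the bins of each gene (108516 bins, 13374 units), so a read that spans several bins counts in each. The 257 merged units were tested but not named. Summed counts were 19163997 to 38607167 per library, and reads outside the bins (8.35% to 11.4%) were left out. Tests over genes used edgeR 4.0.16 under R 4.3.3 (TMM factors 0.813 to 1.20, filterByExpr, robust quasi-likelihood fit over 4 groups, 6 residual degrees of freedom, common biological coefficient of variation 0.206), with Benjamini-Hochberg adjustment over 13226 units. Bin use was tested with diffSpliceDGE and Simes' method per gene. The code was tested on simulated data. DESeq2 1.42.0 and other scalings, filters, blocks and left-out libraries were alternatives. All 39 genes are accounted for, and the rule for named genes took the 3 lowest and 3 highest called genes per class and time, and list genes by a like rule. All counted members are shown, although that goes past the rule. Gene symbols were matched to RefSeq for 39 of 39 members. Coordinates are those of the deposited bins. The members and lists were chosen with earlier results of these data known. No separate cultures are named for the replicates, so a p-value reflects only spread among these libraries, possibly technical.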

Additional observations from a re-analysis of the deposited data

How the results depend on the processing

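Members called lower at 6 h numbered 26 to 31 when 1 library was left out, and kept within 1.5 times of the 29 under each other alternative tried. At 1 h the 18 calls ranged from 6 to 22 when 1 library was left out, and were 10 with library totals alone, 6 with the longest bin only and 3 with pan-neuronal scaling. At 3 h the 22 ranged from 12 to 24, and were 8 with pan-neuronal scaling, an alternative added after seeing the data, under which the joint test over the times called 17. Between 1 h and 3 h the 2 calls ranged from 0 to 3, and were 8 with library totals alone, 0 with the longest bin only and 0 with pan-neuronal scaling. Between 3 h and 6 h the 0 calls ranged from 0 to 1, and were 1 with upper-quartile factors, library totals alone, the filter of a CPM of 1 or more in 3 libraries or barcodes 1 to 8 only, and 2 with DESeq2. Between 1 h and 6 h the 11 ranged from 1 to 16, and were 26 with library totals alone, 7 with the longest bin only and 3 with pan-neuronal scaling. The joint test ranged from 26 to 29. Bin use calls ranged from 0 to 1 at 1 h. The log2 change of nlp-12 at 3 h, -0.01 with all libraries, became 0.49 with barcodes 1 to 8 only and ranged from -0.23 to 0.49 when 1 library was left out, the highest being without starved replicate 3. Library totals alone moved the median of all units to 0.11, -0.26 and -0.37 at 1 h, 3 h and 6 h. The cause of these differences was not tested.

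The libraries were also fitted with the barcode set as a replicate block. The labels give a barcode number alone, and the sets were inferred here from runs of numbers (1 to 4, 5 to 8, and 13 with 16). The labels do not say that a set is a shared culture. Deviations of libraries of the same set correlated at 0.077 to 0.330 over 13 pairs, and those of other pairs at -0.330 to 0.128 over 24 pairs. These are deviations from the group mean, so in a group of 2 libraries they are equal with opposite sign. Many values of other pairs therefore repeat those of same-set pairs with the sign changed, and the 2 ranges are not independent. With the block, 21, 22 and 30 members were called at 1 h, 3 h and 6 h (nlp-12 was lost at 1 h, and flp-3, flp-21, nlp-7 and nlp-11 were gained), 3 between 1 h and 3 h, 3 between 3 h and 6 h, and 14 between 1 h and 6 h. The smallest count of a member in any library was 118, at 6 h.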
